A study of Mus musculus with 15 samples.

Results

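A group of 10 genes that lie beside Il33 on mouse chromosome 19 were followed through 4 groups of adipose RNA libraries. They are a named list of genes near Il33, made with earlier results of these data known, and the choosing rule takes them by name. Other protein-coding genes lie between them and are not on the list. The list holds Cd274, Pdcd1lg2, Jak2, Ak3, Gldc, Uhrf2, Rcl1, Ermp1, Cdc37l1 and Ranbp6. All 10 were found among the 37991 gene identifiers of the count table, and each had at least 1 count. The groups were inguinal white adipose tissue at postnatal day 24 from IL-33-/- mice (3 libraries, numbered 2 to 4) and wild-type mice (4 libraries), and brown adipose tissue at postnatal day 0.5 from mice labelled IL-33-/- (4 libraries) and wild type (4 libraries). All mice had the C57BL/6 background. The labels do not say how the Il33 allele was made or whether knockout and wild-type mice were littermates. The labels leave unsaid whether each library stands for its own animal, so p-values measure the spread between libraries, which may be technical. Tissue and age changed together and cannot be told apart.

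IL-33 is a cytokine held in the nuclei of stromal, endothelial and epithelial cells, and once released it acts through the receptor ST2. In adipose tissue it is known for acting on group 2 innate lymphoid cells and regulatory T cells and for its part in beige and brown fat. Its neighbours have varied roles. Cd274 and Pdcd1lg2 encode PD-L1 and PD-L2, the ligands of the T-cell inhibitory receptor PD-1, and Jak2 encodes a kinase of cytokine receptors. In a mouse with an altered gene, the genes beside it are inherited together with the altered allele, so their own sequence can come from the strain in which the allele was made. Counts per gene carry no sequence variants, and whether this applies here was not tested.

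In the gene order of the RefSeq annotation, Cdc37l1, Ak3, Rcl1 and Jak2 stood 14, 13, 12 and 11 protein-coding places to one side of Il33. Cd274, Pdcd1lg2, Ermp1 and Ranbp6 followed on the same side, at 7, 6, 4 and 1 places. Uhrf2 and Gldc lay on the other side, 2 and 3 places away. The counts were made on another build, mm9, so the annotations used here served only for gene names, order, exon overlaps and promoter windows.

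Library totals ran between 26059635 and 53923009 counts. Levels are given as counts-per-million values (CPM), scaled with 1 set of TMM factors over all 15 libraries, and are compared only within a gene. Changes are log2 fold changes from edgeR's quasi-likelihood test with Benjamini-Hochberg adjustment over all genes tested, called below an adjusted p of 0.05. Il33 itself had 10, 14 and 3 counts in the inguinal knockout libraries, against 133, 160, 100 and 198 counts in inguinal wild-type libraries, a log2 change of -3.73 (SE 0.36, adjusted p = 1.25e-05). In brown tissue Il33 had 0.413, 1.75, 1.41 and 0.594 CPM in the libraries labelled knockout, against 1.82, 3.21, 2.01 and 1.73 CPM in wild-type libraries. The 2 brown groups overlapped, with a log2 change of -1.08 (SE 0.44, adjusted p = 0.229), so the label of the brown knockout libraries was not borne out by a call and they are named by their label throughout. On the first principal component of the brown libraries, which held 39.6% of the variance, library 1 labelled knockout scored -38.1, beside wild-type scores of -29.0 to -21.1 and away from the other libraries labelled knockout at 24.7 to 58.8. On the second component it scored 50.4, apart from all other brown libraries at -39.1 to 10.8. Its Il33 value of 0.413 CPM was the lowest of the 8 brown libraries. With any 1 brown library left out, Il33 was not called (log2 change -1.43 to -0.82, adjusted p 0.149 to 0.461). Brown results are given with and without library 1 labelled knockout where it changes them. Brown library 4 labelled knockout had 76.1 CPM summed over 6 epithelial markers, against at most 1.56 CPM in any brown wild-type library. Tissue markers matched the labels in part: the white-fat hormone gene Lep lay at 206 to 369 CPM in inguinal wild-type libraries and at 0.287 to 3.57 CPM in brown wild-type libraries, and the thermogenic gene Ucp1 was present in both tissues.

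Among the neighbours, 4 of the 9 that were tested in inguinal tissue rose in knockout libraries: Cd274, Rcl1, Ak3 and Ermp1. None fell, and the 4 changes lay between 0.48 and 0.99 on the log2 scale. The test called 28.6% of all genes in that tissue, and 15.3% of all genes as higher. In brown tissue 1 of 8 neighbours tested, Uhrf2, was called higher, where the test called 0.260% of all genes in either direction and 0.184% as higher. Of the 8 neighbours tested other than Gldc, the direct test of the difference between the 2 knockout effects (inguinal minus brown) called 4. Cd274, Ak3 and Ermp1 were higher and Uhrf2 was lower, where the test called 9.00% of all genes. Gldc was lower too, but it passed the filter of that fit only through groups where it is higher than in brown wild-type libraries. Its call is a description. The median log2 change of the neighbours tested was 0.21 in inguinal tissue, beside -0.02 over all genes tested, and -0.0024 in brown tissue, beside 0.0061. Of the 8 neighbours tested in both tissues, 4 had the same sign in both (50.0%), beside 7835 of 15051 genes (52.1%). They were Cdc37l1, Rcl1, Jak2 and Ranbp6. Some of these signs rest on changes near 0, as for Jak2 in inguinal tissue (-0.0019, SE 0.09) and Rcl1 in brown tissue (0.08, SE 0.32). The brown sign of Ranbp6 (0.12, SE 0.14) turned without library 1 labelled knockout. No neighbour passed the threshold in both tissues. The neighbours share a chromosome and are not replicates of one another. Their list was made with earlier results of these data known, so these counts describe it and test nothing.

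**Figure D1:**
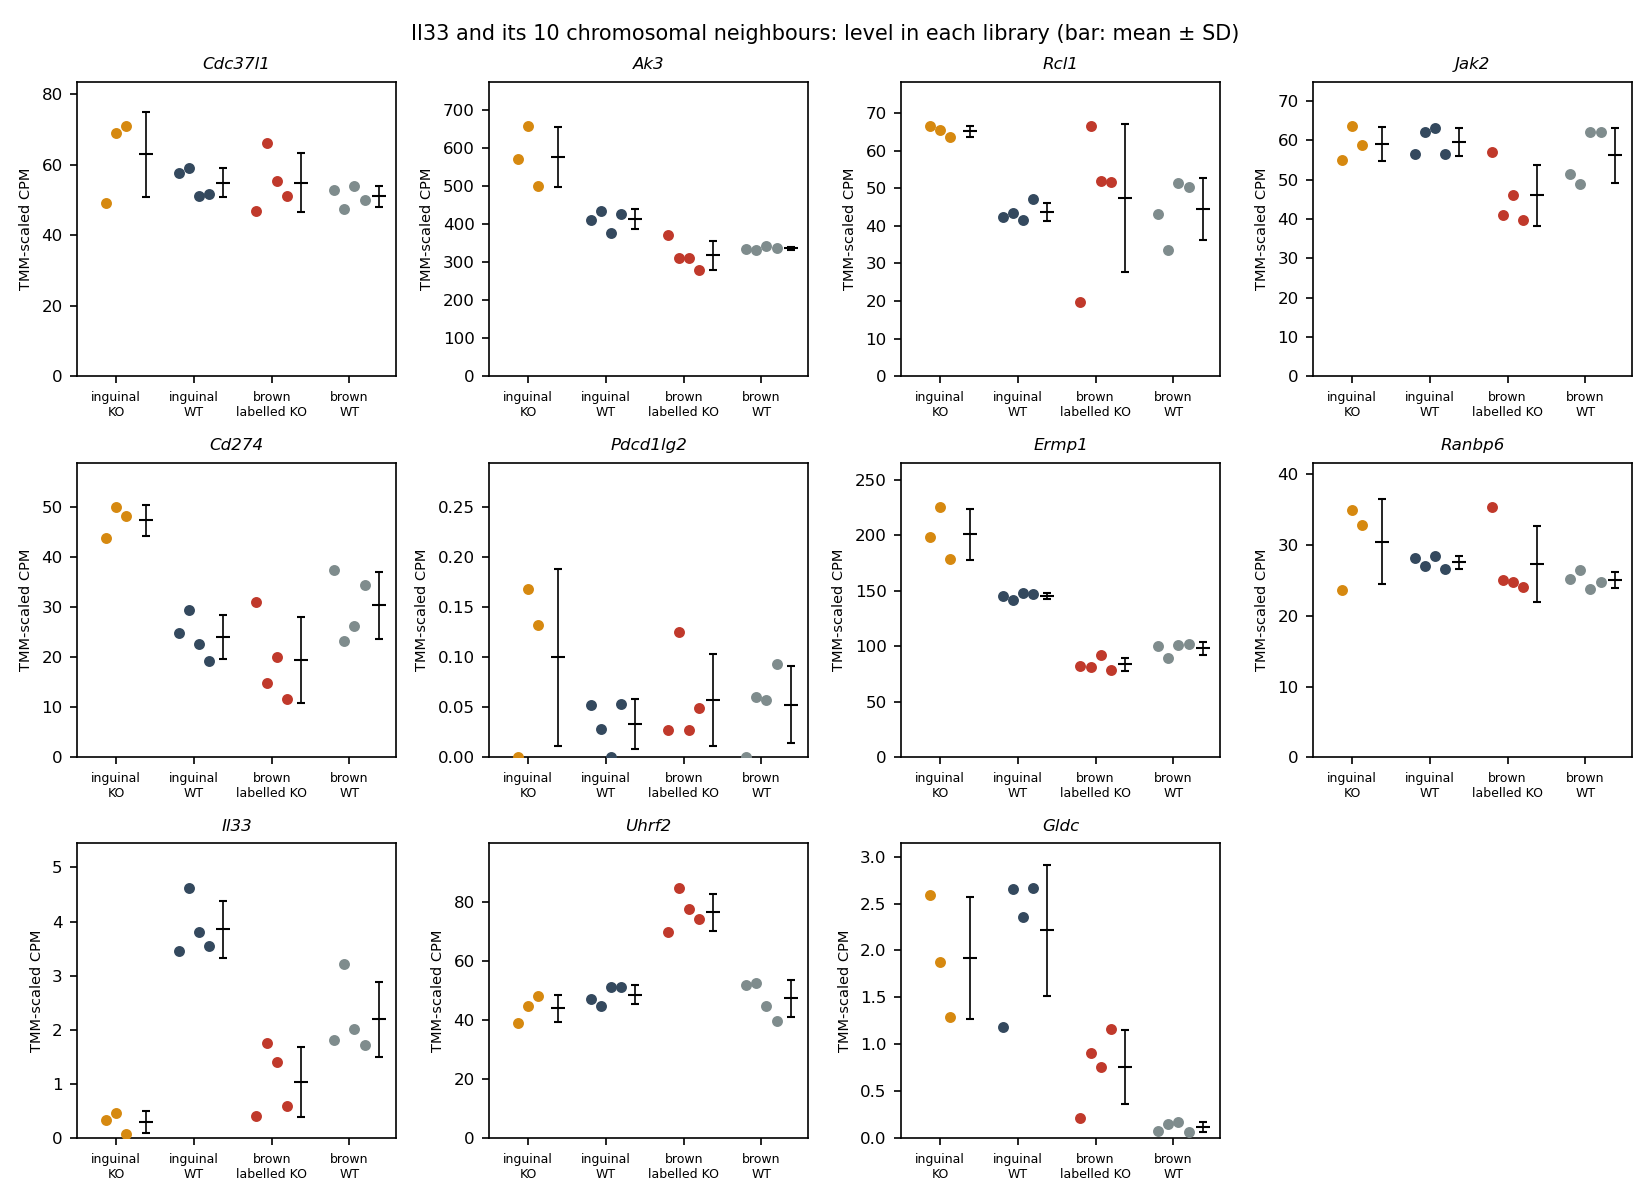
CPM of each neighbour and of Il33 in every library (points; vertical axis TMM-scaled CPM from 0, a scale of its own for each gene), with knockout left of wild type, for inguinal day 24 and then brown day 0.5, and the mean ± SD of each group beside its points. Cd274, Ak3, Rcl1 and Ermp1 show no overlap between the inguinal groups, and Uhrf2 and Gldc show none between the brown groups.

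The knockout effects on Cd274 and Uhrf2 differed between the tissues in opposite directions (1.62 and -0.84 on the log2 scale), and the promoter windows of these 2 genes are shown so that they can be set side by side. Each window is RefSeq sequence of GRCm38.p6 from 250 bases before to 50 bases after the gene's start, on the plus strand, at chr19:29367188-29367487 for Cd274 and chr19:30030263-30030562 for Uhrf2. CpG dinucleotides are in capitals.
Cd274: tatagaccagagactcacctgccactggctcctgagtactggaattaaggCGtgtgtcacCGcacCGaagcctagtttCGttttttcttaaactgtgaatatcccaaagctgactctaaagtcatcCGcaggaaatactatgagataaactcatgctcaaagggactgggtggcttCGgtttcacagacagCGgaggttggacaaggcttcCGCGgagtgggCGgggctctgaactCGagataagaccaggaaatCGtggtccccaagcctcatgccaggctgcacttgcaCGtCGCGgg
Uhrf2: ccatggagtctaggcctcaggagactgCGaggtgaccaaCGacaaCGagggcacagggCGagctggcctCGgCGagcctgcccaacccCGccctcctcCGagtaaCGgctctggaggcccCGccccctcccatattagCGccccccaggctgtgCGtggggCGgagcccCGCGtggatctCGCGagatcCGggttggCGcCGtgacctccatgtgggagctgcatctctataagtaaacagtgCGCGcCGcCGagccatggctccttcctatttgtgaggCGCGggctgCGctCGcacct
The Cd274 window held 15 CpG and the Uhrf2 window 28, beside a median of 7.0 over 32851 promoter windows, of which 94.6% held at least 1. All 10 neighbours had a window, with 3 CpG in that of Pdcd1lg2 and 44 in that of Jak2. The letters TTCNNNGAA, the GAS motif to which STAT proteins bind, read the same on both strands and were found in 8.30% of all windows and in none of the 10. That states only which letters are in these windows.

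Cd274 (ENSMUSG00000016496), whose product PD-L1 restrains T cells, was higher in inguinal knockout libraries than in wild-type ones and had the reverse sign in brown tissue, where it was not called. It had 43.8, 49.9 and 48.2 CPM in inguinal knockout libraries, against 24.8, 29.5, 22.6 and 19.2 CPM in inguinal wild-type libraries. The groups did not overlap, and the log2 change was 0.99 (SE 0.12, adjusted p = 7.58e-05). This call held without each library in turn. In brown tissue Cd274 had 31.1, 14.9, 20.1 and 11.7 CPM in the libraries labelled knockout, against 37.5, 23.2, 26.3 and 34.5 CPM in wild-type libraries. Only library 1 labelled knockout lay within the wild-type range, and the log2 change of -0.65 (SE 0.29) missed the threshold with an adjusted p of 0.261. Without that library it was -0.97 (SE 0.22, adjusted p = 0.0179), in a fit that called 18.1% of all genes. The difference between the tissues was 1.62 on the log2 scale (SE 0.36, 95% interval 0.92 to 2.32, adjusted p = 0.0131) and held without each of the 15 libraries in turn.

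PD-L1 is made by many cell types, so marker sums are set beside these values. In inguinal tissue the macrophage markers summed to 383 to 482 CPM in knockout libraries and 390 to 523 CPM in wild-type libraries. The dendritic-cell markers summed to 43.8 to 47.8 CPM in knockout and 41.0 to 51.0 CPM in wild-type libraries. T-cell markers summed to 11.4 to 23.0 CPM in knockout and 11.9 to 19.3 CPM in wild-type libraries. Progenitor markers summed to 2052 to 2521 CPM in knockout and 1928 to 3004 CPM in wild-type libraries. These sums overlapped between the groups. Others did not: skeletal muscle markers summed to 37.9 to 42.6 CPM in knockout and 129 to 362 CPM in wild-type libraries, B-cell markers to 85.6 to 109 CPM in knockout and 119 to 180 CPM in wild-type libraries. Endothelial markers summed to 831 to 915 CPM in knockout and 926 to 1140 CPM in wild-type inguinal libraries, and brown-adipocyte markers to 2601 to 3275 CPM in knockout and 1259 to 1912 CPM in wild-type libraries. Markers shared by adipocytes summed to 24483 to 26358 CPM in knockout and 27855 to 29929 CPM in wild-type inguinal libraries, and white-adipocyte markers to 591 to 694 CPM in knockout and 924 to 1187 CPM in wild-type libraries. Single genes of the shared and white-adipocyte lists went both ways. Of 7 shared adipocyte markers tested, 1 was called higher and 1 lower in inguinal knockout libraries. Of 5 white-adipocyte markers tested, 2 were called higher and 1 lower, so the sums do not speak for each marker. Called lower were 9 of 10 muscle, 3 of 9 B-cell and 3 of 7 endothelial markers tested, and none of these was called higher. Of 8 brown-adipocyte markers tested, 5 were called higher and 0 lower, beside 28.6% of all genes called in either direction. Epithelial markers summed to 0.941 to 1.27 CPM in knockout inguinal libraries, with Krt5 at 0, and to 3.14 to 9.85 CPM in wild-type libraries. In brown tissue the dendritic-cell sum was 27.7 to 33.8 CPM in libraries labelled knockout and 39.4 to 45.3 CPM in wild-type libraries, the same direction as Cd274. Of 5 dendritic-cell markers tested there, 0 were called. Mean brown-tissue sums were also lower in libraries labelled knockout for endothelial (1227 against 1431 CPM) and brown-adipocyte markers (5527 against 7573 CPM). They were higher for macrophage (285 against 266 CPM) and progenitor markers (1778 against 1181 CPM), and these sums overlapped. In whole tissue, fewer cells of a type and less RNA per cell cannot be told apart, and the part of any cell type in these results was not tested.

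Pdcd1lg2 (ENSMUSG00000016498), encoding PD-L2, was near the limit of detection. It had 0, 5 and 5 counts in inguinal knockout libraries, against 2, 1, 0 and 3 counts in inguinal wild-type libraries. The inguinal sums were 10 (exact Poisson 95% interval 4.80 to 18.4) in knockout and 6 (2.20 to 13.1) in wild type. Brown libraries labelled knockout held 1, 4, 1 and 2 counts, and brown wild-type libraries 0, 2, 2 and 4, summing to 8 in each group (3.45 to 15.8). It passed no filter on low counts, and no difference was detectable at this depth. An exact two-sided permutation test of its CPM gave p = 0.943 in brown and p = 0.286 in inguinal tissue. The smallest p that this test allows is 0.0286 in brown and 0.0571 in inguinal tissue. Intervals here cover counting error only.

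Jak2 (ENSMUSG00000024789) carries the signals of many cytokine and hormone receptors to STAT proteins, and was not called in either tissue with all libraries. It had 54.9, 63.5 and 58.7 CPM in inguinal knockout libraries, against 56.6, 62.2, 63.2 and 56.6 CPM in inguinal wild-type libraries. The 95% interval of the log2 change was -0.17 to 0.17 (adjusted p = 0.990). In brown tissue Jak2 had 56.9, 41.1, 46.1 and 39.8 CPM in libraries labelled knockout, against 51.5, 49.0, 62.2 and 62.2 CPM in wild-type libraries. The groups overlapped through library 1 labelled knockout, with a log2 change of -0.30 (SE 0.14, adjusted p = 0.285) with it and -0.42 (SE 0.12, adjusted p = 0.0328) without it. The difference between tissues, 0.27 on the log2 scale, had a 95% interval of -0.06 to 0.61 and an adjusted p of 0.324 with all libraries. Without brown library 1 labelled knockout it was 0.41 (SE 0.14, adjusted p = 0.0477).

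Of 17 tested genes of the PD-1 checkpoint and of interferon and JAK-STAT signalling, 5 were higher and 1 was lower in inguinal knockout libraries, and 0 of 15 were called in brown tissue. Over all genes tested, 28.6% were called in inguinal tissue and 0.260% in brown tissue. Socs2, an inhibitor of cytokine and growth hormone signalling, was the one that fell, to 7.90 ± 1.94 CPM in inguinal knockout libraries (SD, n = 3) against 20.4 ± 5.27 CPM in wild-type libraries (SD, n = 4; log2 change -1.35, adjusted p = 0.000823). Jak3, the kinase paired with the common gamma chain of lymphocyte receptors, was higher by 0.35 on the log2 scale (adjusted p = 0.0153), a call lost without inguinal wild-type library 4 (adjusted p = 0.0507) and with all 4 groups in 1 fit (adjusted p = 0.0907). The median log2 change of this list was 0.08, beside -0.02 over all genes tested.

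Ak3 (ENSMUSG00000024782), the mitochondrial matrix kinase that passes phosphate from GTP to AMP, rose in inguinal tissue. It had 571, 657 and 500 CPM in knockout libraries, against 412, 436, 376 and 426 CPM in wild-type libraries, with no overlap. The log2 change was 0.49 (SE 0.11, adjusted p = 0.00336). In brown tissue it had 371, 312, 312 and 280 CPM in libraries labelled knockout, against 334, 333, 342 and 338 CPM in wild-type libraries. The wild-type values were close together and lay inside the range of those labelled knockout (log2 change -0.09, SE 0.10, adjusted p = 0.693). The difference between tissues was 0.56 (SE 0.15, adjusted p = 0.0291), but the call was lost without any 1 of 8 of the 15 libraries, with adjusted p up to 0.105. Those were brown wild-type libraries 3 and 4, brown libraries 2 and 4 labelled knockout, inguinal wild-type libraries 1 and 3, and inguinal knockout libraries 2 and 3. None of the 6 other adenylate kinases tested in inguinal tissue passed the threshold there, beside 28.6% of all genes, and 0 of 5 did in brown tissue, beside 0.260%. Their median log2 change in inguinal tissue was -0.15, beside -0.02 over all genes tested. The difference between tissues was called for 1 of the 6, Ak4, at -1.52 (adjusted p = 0.0233). That call was lost without inguinal knockout library 3 (adjusted p = 0.0825).

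Gldc (ENSMUSG00000024827) encodes the glycine decarboxylase of the mitochondrial glycine cleavage system and was scarce in brown tissue. It had 8, 29, 28 and 47 counts in brown libraries labelled knockout, against 3, 5, 6 and 3 counts in brown wild-type libraries. Every library labelled knockout lay above every wild-type one, at 0.762 ± 0.398 CPM in libraries labelled knockout and 0.118 ± 0.0503 CPM in wild-type libraries (SD, n = 4 each). Their ratio was 6.44, and an exact two-sided permutation test gave p = 0.0286, the smallest that 4 libraries against 4 allow. Gldc did not pass the filter on low counts in brown tissue, and with no filter the adjusted p was 0.0645. It entered the fit without library 1 labelled knockout (log2 change 2.98, SE 0.41, adjusted p = 0.00215), where the libraries labelled knockout alone carry it past the filter, so that call is a description. In inguinal tissue Gldc had 2.59, 1.88 and 1.29 CPM in knockout libraries, against 1.19, 2.65, 2.36 and 2.66 CPM in wild-type libraries. These groups overlapped (log2 change -0.20, SE 0.31, adjusted p = 0.660). The difference between tissues was -2.89 on the log2 scale (SE 0.66, adjusted p = 0.0147), and its adjusted p stayed below 0.05 without each of the 15 libraries in turn. Gldc passed the filter of that fit only through groups where it is higher than in brown wild-type libraries, so that call too is a description.

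Among 5 other genes of glycine cleavage and its folate partners, 2 were higher in inguinal knockout libraries, beside 28.6% of all genes called, and 0 were called in brown tissue, beside 0.260%. Their median log2 change in inguinal tissue was 0.20. Shmt1, which links serine and glycine through folate, had 32.4 to 45.9 CPM in the 3 inguinal knockout libraries, against 18.6 to 25.6 CPM in the 4 wild-type libraries (log2 change 0.87, adjusted p = 0.000413). Dld, the dehydrogenase subunit that the glycine cleavage system shares with pyruvate dehydrogenase, was higher by 0.53 (adjusted p = 0.00199, and 0.0548 with all 4 groups in 1 fit). Gldc itself was not called in that tissue, while for Shmt1 the difference between tissues was 0.99 (SE 0.20, adjusted p = 0.00733).

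Uhrf2 (ENSMUSG00000024817), a ubiquitin ligase that binds modified cytosines in DNA, was the neighbour called in brown tissue. It had 69.8, 84.7, 77.8 and 74.5 CPM in libraries labelled knockout, against 52.1, 52.8, 44.8 and 39.9 CPM in wild-type libraries. The groups were separate, library 1 labelled knockout included. The log2 change was 0.69 (SE 0.11) with an adjusted p of 0.0490, close to the threshold. Without library 1 labelled knockout the adjusted p was 0.00290, and without any 1 of the other 7 libraries the call was lost, with adjusted p up to 0.174 and a log2 change between 0.61 and 0.74. It was also lost with a filter at 5 CPM, non-robust dispersions or a replicate block, with adjusted p up to 0.0927. In inguinal tissue Uhrf2 had 39.0, 45.0 and 48.1 CPM in knockout libraries, against 47.3, 44.8, 51.3 and 51.4 CPM in wild-type libraries, which overlapped (log2 change -0.13, SE 0.09, adjusted p = 0.314). The difference between tissues, -0.84 (SE 0.15, adjusted p = 0.00451), held without each library in turn. Of 7 other genes of DNA methylation and its removal, 0 were called in brown tissue, and in inguinal tissue 1 was higher (the methyltransferase Dnmt3a, 0.32) and 2 were lower (the dioxygenase Tet1, -0.75, and the maintenance factor Uhrf1, -0.45). The share of all genes called was 0.260% in brown tissue and 28.6% in inguinal tissue. The adjusted p was 0.0169 for Dnmt3a, 0.0176 for Tet1 and 0.0178 for Uhrf1, and the median log2 change of the 7 in inguinal tissue was -0.20. None of the 3 calls held without each inguinal library in turn: Dnmt3a was lost without wild-type library 1 or 3 or knockout library 3 (adjusted p up to 0.0609), Tet1 without wild-type library 2 or knockout library 2 or 4 (up to 0.0598), and Uhrf1 without wild-type library 4 or knockout library 3 (up to 0.0910).

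Rcl1 (ENSMUSG00000024785), a nucleolar protein needed to process ribosomal RNA, rose in inguinal tissue. It had 66.4, 65.4 and 63.6 CPM in knockout libraries, against 42.4, 43.3, 41.6 and 47.0 CPM in wild-type libraries. The gap between the groups was wider than the spread within either, and the log2 change was 0.59 (SE 0.08, adjusted p = 0.000176). With all 4 groups in 1 fit the adjusted p was 0.177; that fit shares 1 estimate of spread between the tissues. In brown tissue Rcl1 had 19.7, 66.4, 51.9 and 51.6 CPM in libraries labelled knockout, against 43.2, 33.5, 51.3 and 50.2 CPM in wild-type libraries. Library 1 labelled knockout was the lowest of the 8, and the log2 change of 0.08 had a 95% interval of -0.54 to 0.70. The difference between tissues, 0.49, was not called (95% interval -0.24 to 1.22, adjusted p = 0.431). Of 10 other genes of ribosomal RNA processing, 1 was called in inguinal tissue, beside 28.6% of all genes, and 0 in brown, beside 0.260%, with a median log2 change of 0.06 in inguinal tissue. It was Imp4, a protein of the small-subunit processome, at 0.30 (adjusted p = 0.0244). That call was lost without inguinal wild-type library 2, 3 or 4 or knockout library 2, with adjusted p up to 0.0773.

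Ermp1 (ENSMUSG00000046324), a metallopeptidase of the endoplasmic reticulum, rose in inguinal tissue. It had 198, 225 and 179 CPM in knockout libraries, against 145, 142, 148 and 147 CPM in wild-type libraries. No value overlapped, and the log2 change was 0.48 (SE 0.09, adjusted p = 0.00183). In brown tissue it had 82.6, 81.0, 92.4 and 78.7 CPM in libraries labelled knockout, against 100, 89.1, 101 and 102 CPM in wild-type libraries. Library 3 labelled knockout and wild-type library 2 were the ones that overlapped, and the log2 change of -0.24 (SE 0.09) was not called (adjusted p = 0.217). The difference between tissues was 0.69 (SE 0.13, adjusted p = 0.00451) and held without each of the 15 libraries in turn.

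Ranbp6 (ENSMUSG00000074909), a member of the importin-beta family of nuclear transport receptors and the protein-coding gene next to Il33, was not called in any comparison. It had 23.6, 34.9 and 32.8 CPM in inguinal knockout libraries, against 28.2, 27.0, 28.5 and 26.6 CPM in inguinal wild-type libraries. Knockout library 2 lay below all wild-type libraries and the other two lay above them. The log2 change was 0.16 (SE 0.12, adjusted p = 0.349), and 0.30 (adjusted p = 0.0202) without that library. In brown tissue it had 35.3, 25.0, 24.8 and 24.1 CPM in libraries labelled knockout, against 25.2, 26.5, 23.8 and 24.8 CPM in wild-type libraries. Library 1 labelled knockout was alone above 26.5 CPM, and the log2 change was 0.12 (SE 0.14, adjusted p = 0.685). With a brown library left out it lay between -0.03 and 0.17, and its sign turned only without library 1 labelled knockout. Of 7 importin-beta relatives, 1 was called in inguinal tissue, beside 28.6% of all genes, and 0 in brown, beside 0.260%, with a median log2 change of -0.04 in inguinal tissue. It was the nuclear import receptor Ipo7 at 0.28 (adjusted p = 0.0308), a call lost without any 1 inguinal wild-type library or without knockout library 3 (adjusted p up to 0.150).

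Cdc37l1 (ENSMUSG00000024780), a relative of the HSP90 co-chaperone Cdc37, was likewise not called. It had 49.2, 69.1 and 70.9 CPM in inguinal knockout libraries, against 57.8, 59.2, 51.2 and 51.7 CPM in inguinal wild-type libraries. Knockout library 2 was again the lowest, and the log2 change was 0.21 (SE 0.12, adjusted p = 0.192), or 0.36 (adjusted p = 0.00652) without it. In brown tissue it had 47.0, 66.3, 55.4 and 51.2 CPM in libraries labelled knockout, against 52.8, 47.4, 54.1 and 50.1 CPM in wild-type libraries, which overlapped (log2 change 0.10, SE 0.12, adjusted p = 0.692). Of 7 genes of HSP90 and its co-chaperones, 0 were called in either tissue, beside 28.6% of all genes in inguinal and 0.260% in brown tissue. The median log2 change of the 7 in inguinal tissue was 0.11. The exons of Cdc37l1 and Ak3 overlap on opposite strands by 430 bases in the GENCODE M21 annotation of GRCm38. Antisense genes overlap Cd274 by 511 bases, Ak3 by 283 bases and Ranbp6 by 173 bases. The sources used here do not give the strand setting of the counting, so reads from these overlaps are uncertain. No such overlap was found for Uhrf2, Gldc, Jak2, Rcl1, Ermp1 or Pdcd1lg2.

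**Figure D2:**
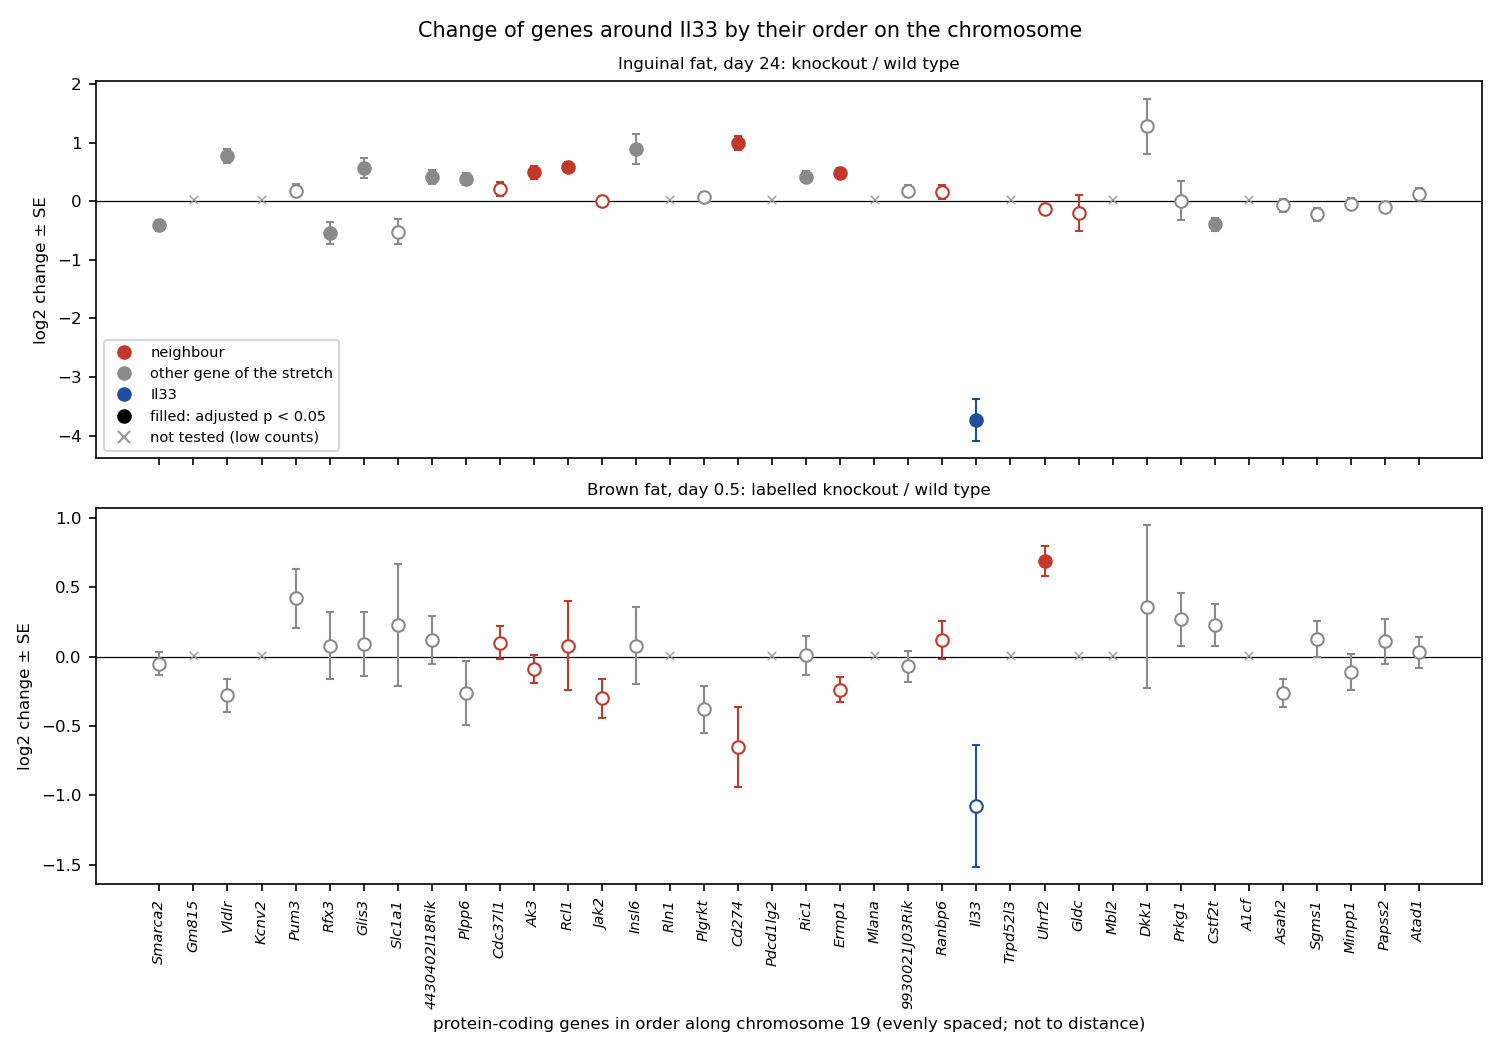
Log2 change (knockout over wild type, points, with ± SE as bars; filled where the adjusted p was below 0.05) of each tested gene of the stretch, in evenly spaced gene order along chromosome 19, inguinal above brown; crosses mark genes not tested. In inguinal tissue Cd274 at 0.99 lies highest among the neighbours, and changes of both signs occur along the stretch beyond them.

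The rest of the stretch was described in the same way. Of 20 other protein-coding genes tested in inguinal tissue, out of 27 in the stretch, 6 were higher and 3 were lower in knockout libraries, beside 28.6% of all genes called. In brown tissue 0 of 20 were called, beside 0.260% of all genes. Their median log2 change was 0.09 in inguinal tissue and 0.08 in brown tissue. Inside the span between Cdc37l1 and Gldc, 2 of 4 tested genes were higher in inguinal knockout libraries and 0 lower, and beyond it 4 of 16 were higher and 3 lower. Of these 9 calls, 6 did not hold without each inguinal library in turn. Insl6, 1 of the 2 inside the span, was lost without wild-type library 2 or 3 or knockout library 4 (adjusted p up to 0.0728). Glis3 and Plpp6 were lost without knockout library 3 (0.0740 for Glis3 and 0.0519 for Plpp6), and 4430402I18Rik without wild-type library 1 or knockout library 2 (up to 0.0649). Cstf2t was lost without wild-type library 2 or 4 or knockout library 2 (up to 0.0564), and Rfx3 without wild-type library 1, 2 or 3 or knockout library 2 or 3 (up to 0.146). The calls of Ric1, Vldlr and Smarca2 held without each of the 7. Ric1, which lies between Pdcd1lg2 and Ermp1 and encodes a partner of a Golgi exchange factor, had 101 ± 6.25 CPM in inguinal knockout libraries (SD, n = 3) against 76.5 ± 7.65 CPM in wild-type libraries (SD, n = 4; log2 change 0.42, adjusted p = 0.00524). Vldlr, a lipoprotein receptor 22 places from Il33, had 187 ± 22.4 CPM in inguinal knockout libraries (SD, n = 3) against 111 ± 15.2 CPM in wild-type libraries (SD, n = 4; log2 change 0.77, adjusted p = 0.000302). Its difference between tissues was 1.03 (SE 0.18, adjusted p = 0.00273). Smarca2, a chromatin-remodelling ATPase 24 places away, was lower in inguinal knockout libraries, at 65.8 ± 4.06 CPM against 88.2 ± 5.90 CPM in wild-type libraries (log2 change -0.41, adjusted p = 0.00325).

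**Figure D3:**
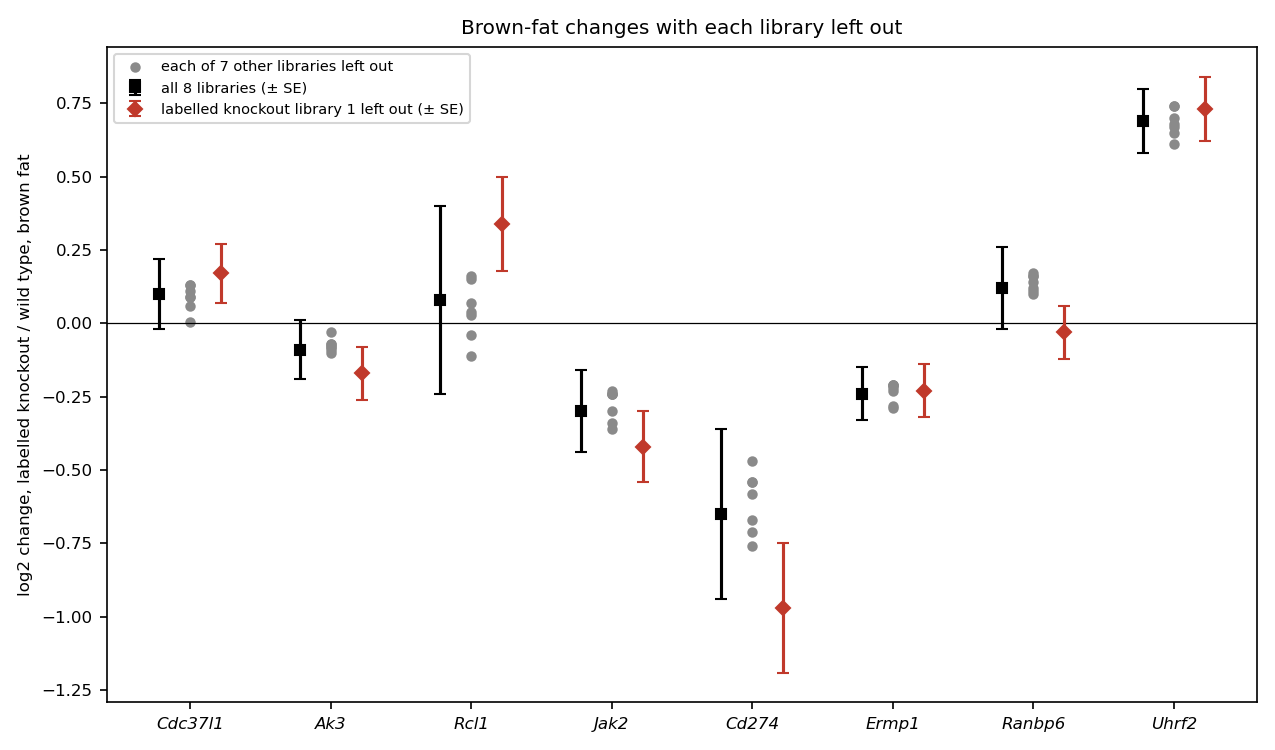
Log2 change in brown tissue (libraries labelled knockout over wild type) of each of the 8 neighbours tested, with all 8 libraries (squares, ± SE), without library 1 labelled knockout (diamonds, ± SE) and without each of the other 7 libraries (grey points). Cd274 is at -0.65 with all libraries and -0.97 without that one, and Uhrf2 at 0.69 and 0.73.

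Without brown library 1 labelled knockout, 3 of the 8 neighbours tested in both brown fits were called, beside 18.1% of all genes called in that fit. They were Cd274 and Jak2, which were lower in the libraries labelled knockout, and Uhrf2, which was higher. Gldc is left out of this count, since its high group alone carried it past the filter. For Rcl1 the log2 change became 0.34 (SE 0.16, adjusted p = 0.157). The library was set apart after its place among the others was seen.

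Between the wild-type tissues, 2 of the 8 neighbours tested other than Gldc were higher in inguinal tissue at day 24 than in brown tissue at day 0.5, and none was lower, where the test called 61.4% of all genes and 30.7% as higher. Gldc entered that fit through the inguinal libraries, where it is high, so its values are a description: 46, 92, 62 and 148 counts in inguinal and 3, 5, 6 and 3 counts in brown wild-type libraries, or 2.22 ± 0.695 CPM in inguinal and 0.118 ± 0.0503 CPM in brown wild-type libraries (SD, n = 4 each). Ermp1 had 145 ± 2.61 CPM in inguinal and 98.1 ± 6.01 CPM in brown wild-type libraries (log2 ratio 0.57, SE 0.07, adjusted p = 1.46e-05). For Ak3 the levels were 413 ± 26.1 CPM in inguinal and 337 ± 4.33 CPM in brown wild-type libraries (log2 ratio 0.29, adjusted p = 0.00357). Cd274, at 24.0 ± 4.32 CPM in inguinal and 30.4 ± 6.72 CPM in brown wild-type libraries, was not called (log2 ratio -0.34, adjusted p = 0.103). Jak2, Uhrf2, Rcl1, Cdc37l1 and Ranbp6 had log2 ratios between -0.03 and 0.14, and none was called. These ratios share the wild-type libraries with the knockout comparisons.

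For the 5 neighbours called in a knockout comparison, the genes with the most similar profile were found by the root mean square difference of centred log2 CPM over the 15 libraries. Ermp1 was nearest to Atrn at 0.107, Gramd4 at 0.125 and Lamtor1 at 0.136, beside its own spread of 0.482 around its mean. Ak3 was nearest to Tcaim at 0.104, Mccc2 at 0.111 and Hibch at 0.112, with an own spread of 0.334. Uhrf2 was nearest to Zfp369 at 0.157 and Iqgap2 at 0.162, with an own spread of 0.341. Rcl1 was nearest to Wdr46 at 0.180, with an own spread of 0.437, and Cd274 to Amer1 at 0.238, with an own spread of 0.583. Because these genes were picked as the nearest of all, the distances describe the profiles and test nothing.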

How the data were processed

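Polyadenylated RNA from mouse brown and inguinal adipose tissue was sequenced in 15 libraries. Per the labels' protocols, TRIsure and a column kit served for extraction and the TruSeq Stranded mRNA kit for the libraries. The values deposited by the authors are raw counts per Ensembl gene, with no normalization. The mm9 build, TopHat2 2.1.0, Subread, featureCounts and edgeR are named in the submitters' processing notes. The sources used here give no roles for these tools, no annotation release and no strand setting. Of 37991 identifiers, 32919 matched a symbol in the GRCm38 annotation.

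From the counts, edgeR 4.0.16 (R 4.3.3) gave TMM factors and robust quasi-likelihood tests after filterByExpr with a minimum count of 10, separately for each tissue, and in all 4 groups for the difference of the knockout effects. Wild-type tissues were compared in a fit of their own. Intervals are nominally 95%. For log2 changes they use a normal quantile times the standard error, which comes from the F statistic. With few libraries they are narrower than the quasi-likelihood test implies, as for Jak2 in brown tissue (-0.57 to -0.03, unadjusted p = 0.0577 by that test). Calls rest on the adjusted p alone. An exact permutation test was used where a neighbour missed the filter, for Gldc in brown tissue and for Pdcd1lg2 in both tissues. Alternatives were DESeq2 1.42.0 size factors and Wald test, no filter, a filter at 5 CPM, limma-voom 3.58.1 with quality weights, non-robust dispersions, a replicate block, all 4 groups in 1 fit, and each library left out. The fits were also run on simulated counts with known changes and no outlying library, and the outcome is not reported here.

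The members and lists were chosen with earlier results of these data known. Named by rule were the 10 neighbours, Il33, of each list the genes past the threshold in brown tissue and the 3 with the smallest adjusted p in inguinal tissue, and the 3 nearest profiles; some genes that the rule names are not reported here. No 2 libraries of a group agreed within sampling noise (lowest chi-square per degree of freedom 14.7). Counts set the precision: Pdcd1lg2, and Gldc in brown tissue, rest on few reads.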

Additional observations from a re-analysis of the deposited data

Results flagged for a closer look

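For 5 neighbours and for Il33, the knockout effect differed between the tissues by edgeR's test of the difference itself (inguinal minus brown, log2). The differences were 1.62 for Cd274 (adjusted p = 0.0131), 0.69 for Ermp1 (adjusted p = 0.00451), 0.56 for Ak3 (adjusted p = 0.0291), -0.84 for Uhrf2 (adjusted p = 0.00451), -2.89 for Gldc (adjusted p = 0.0147) and -2.65 for Il33 (adjusted p = 0.0218). That for Il33 was lost without inguinal knockout library 2 or 4, with adjusted p up to 0.0529, and that for Ak3 without 8 of the 15 libraries. The difference of -2.89 for Gldc (adjusted p = 0.0147) is a description, since only groups where it is higher than in brown wild-type libraries carried it past the filter. Tissue and age cannot be told apart in these differences.

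In 2 of 33 groups of 4 libraries looked at, 1 library lay far from the other 3. Ranbp6 had 35.3 CPM in brown library 1 labelled knockout, beside 24.1, 24.8 and 25.0 CPM in the other libraries of that label. Ermp1 had 89.1 CPM in brown wild-type library 2, beside 100, 101 and 102 CPM in the others. Chance alone flags about 1 in 20 such groups.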

How the results depend on the processing

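In brown tissue 41 of 15796 genes tested were called with all libraries, and 67 of 25349 with no filter on low counts. Of the 15796, DESeq2 called 1032, limma-voom 3127 and the replicate block 7. All 4 groups in 1 fit called 1151 of 16858. With a library left out the number was between 2 of 16033 and 2905 of 16071. At an unadjusted p below 0.05 the number with all libraries was 2930. Of the 8 neighbours tested there with all libraries, 0 were called with the filter at 5 CPM, with non-robust dispersions and with the replicate block. With limma-voom 4 were called (Cd274, Uhrf2, Jak2 and Ermp1). With all 4 groups in 1 fit Uhrf2 was called. Gldc was called there too, but entered that fit only through groups where it is higher than in brown wild-type libraries. With a library left out between 0 and 4 neighbours were called, where the 4 include Gldc. In inguinal tissue 2249 of 16858 genes were called with all 4 groups in 1 fit, against 4498 of 15710. With a library left out the number was 3274 of 16181 to 4719 of 16000, with 4 to 6 of 9 neighbours called. For the difference, 2351 of 16858 genes were called with DESeq2, 3696 with limma-voom and 859 with the replicate block. With a library left out the number was 632 of 17339 to 3571 of 16808, with 4 to 6 of 9 neighbours called, Gldc included. The Ak3 difference was not called under the block (adjusted p = 0.102). Same-numbered libraries did not deviate together (correlations of -0.036 to 0.141 over 4 brown numbers and -0.072 to 0.033 over 3 inguinal numbers), so the numbers were not taken as pairs. Signs turned where the change was near 0: Rcl1 in brown tissue at -0.02 with the block and -0.11 to 0.34 with a library left out; Jak2 in inguinal tissue at 0.00097 with DESeq2 size factors, 0.0012 with the DESeq2 test, 0.02 with limma-voom and -0.05 to 0.04 with a library left out. Leaving out a library also turned Ranbp6 in brown tissue (-0.03 to 0.17) and in the difference (-0.09 to 0.18), Gldc in inguinal tissue (-0.49 to 0.03), and Rcl1 (-0.15 to 0.04) and Uhrf2 (-0.04 to 0.10) between wild-type tissues. Of 667 log2 changes recomputed for the neighbours and Il33, those of Gldc in brown tissue left aside, 611 kept direction and call, 23 lost the call, 11 gained it and 22 turned sign. The cause was not tested.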
